A study of Sus scrofa with 96 samples.

Results

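The genes described here build the sarcomere of skeletal muscle and couple excitation of the fibre to contraction. They were listed by name as 46 genes, and 37 of them had a symbol among the 25880 Ensembl identifiers of the count files. MYH1, MYH2, MYH4, MYLPF, LMOD3, TTN, LDB3, RYR1 and JPH2 had no matched identifier and were not analysed here, so that the fast myosin heavy chains, titin and the ryanodine receptor are missing from every statement below. By role, the 37 matched genes comprised 8 of the thin filament, 4 of the thick filament, 3 of titin and the M-band, 10 of the Z-disc, 3 that respond to stretch, 6 of the triad and 3 that handle calcium.

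In a muscle fibre, actin-based thin filaments are anchored at Z-discs and slide past myosin-based thick filaments that are held together at the M-band. Depolarisation of the transverse tubule is sensed at the triad, calcium leaves the sarcoplasmic reticulum, and its binding to troponin C on the thin filament permits cross-bridges to form. Calcium is then pumped back by the reticulum's ATPase, which sarcolipin inhibits, while parvalbumin buffers calcium in fast fibres.

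The study fed pigs (Sus scrofa) a semi-purified diet without xylose (control) or the same diet with 8% D-xylose, a pentose sugar, and its design text names 24 animals. RNA from longissimus dorsi (a muscle of the back), liver, kidney cortex and the mucosa of the jejunum was made into 96 libraries by QuantSeq, which reads the 3′ end of polyadenylated RNA, with 12 libraries per tissue and diet. Age, sex and breed were not given in the labels, and the RNA of muscle was isolated with another kit than that of the other tissues, so that tissue and kit cannot be told apart. The labels do not tie the libraries of 1 animal together, and p-values measure the spread between libraries.

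For 90 of the 96 files the sample title held in the file name differed from the sample under which the file was recorded, and files were assigned by that title. After 6 libraries under 1000000 counts were left out, 90 remained: 12 control and 12 xylose in muscle, 9 and 10 in jejunum, 12 and 12 in kidney, and 12 and 11 in liver. Totals ran from 2264421 to 5531709 counts in muscle, 1044588 to 4925124 in jejunum, 1500278 to 6942566 in kidney and 1631992 to 6655160 in liver. The files came from sequencing lanes 7 and 8, and each lane held both diets of every tissue. Muscle markers outside the listed genes, such as creatine kinase CKM, took 3.85% to 6.32% of counts in muscle libraries and at most 0.146% elsewhere, so the muscle libraries held the markers of their labelled tissue.

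A pair of muscle libraries stood apart and recurs below, both of them on the xylose diet and in lane 8. Muscle xylose 7 had 0.73% of its counts in liver markers against a median of 0.114% over the 24 muscle libraries, and 21.0% in the 37 genes, the lowest share of any muscle library. Muscle xylose 12 had 8.65% of its counts in mitochondrial genes against a median of 5.72%, the highest of the 24. Of the 35 listed genes with a muscle median of 1 CPM (a count scaled to a library total of 1000000) or more, 7 had their highest level in muscle xylose 7 and 6 their lowest, and 5 had their highest level in muscle xylose 12 and 3 their lowest. Such counts were not particular to the pair, since 7 genes had their lowest level in muscle control 9 and 5 their highest in muscle control 8. What part these libraries' other content played was not tested, and results that rest on them are given with and without them.

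The 37 genes took a median of 31.3% of all counts in muscle (lowest 21.0%, highest 36.2%), and 1 gene made up most of that. Skeletal muscle α-actin (ACTA1, ENSSSCG00000010190), the protein of the thin filament itself, was the most abundant gene of all in muscle at a median of 201874 CPM. Since each transcript gives reads at its 3′ end only, CPM levels of different genes need no correction for length. They still depend on the annotated 3′ end of each gene, which was not examined. In single libraries ACTA1 took between 8.25% and 25.5% of the counts, and its lowest value, 82532 CPM, was that of muscle xylose 7. Without ACTA1 the remaining 36 genes held a median of 11.2% of counts.

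Of the 37 genes, 4 were among the 10 most abundant genes in muscle, 14 among the first 50, 19 among the first 100 and 28 among the first 500. All 4 in the first 10 belong to the thin filament. After ACTA1 came the fast troponin T (TNNT3, ENSSSCG00000031903), which ties troponin to tropomyosin, at rank 6 with a median of 20661 CPM (14976 to 27639). Next were tropomyosin 1 (TPM1, ENSSSCG00000004570), which covers the myosin-binding sites on actin, at rank 7 with 20207 CPM (15884 to 29081), and the fast troponin C (TNNC2, ENSSSCG00000007424), the calcium sensor, at rank 8 with 17446 CPM (10304 to 23119). These 3 overlapped in their ranges, so their order among themselves was within the spread of libraries, whereas no library of ACTA1 came near them.

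The remaining thin filament genes spread over a wider scale. Tropomyosin 2 (TPM2) stood at a median of 6154 CPM, nebulin (NEB), the ruler of thin filament length, at 4125 CPM and the fast troponin I (TNNI2), the inhibitory subunit, at 3597 CPM. The median of TNNI2 was thus below those of both its troponin partners. Tropomodulin 4 (TMOD4), which caps the pointed end of the thin filament, was at the other end with a median of 0.753 CPM and a highest value of 2.65 CPM, rank 10434 of all genes. Whether TMOD4 counts were split with a neighbouring gene or missed at its 3′ end was not tested.

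Among the thick filament genes, the fast essential light chain MYL1 led at rank 11 with a median of 11679 CPM, from 2598 in muscle xylose 12 to 16721 in muscle control 6. The fast myosin-binding protein C (MYBPC2), which tunes cross-bridges along the filament, followed at 3010 CPM (2442 to 6625), and its slow counterpart MYBPC1 at 688 CPM (414 to 1325). The MYBPC2 and MYBPC1 ranges did not overlap. Myosin light chain kinase 2 (MYLK2), which phosphorylates the regulatory light chain, was much lower at 43.5 CPM.

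The M-band was represented by myomesin 2 (MYOM2) at 4345 CPM (2598 to 11858) and myomesin 1 (MYOM1) at 1281 CPM (579 to 3809), both of which crosslink thick filaments. Calpain 3 (CAPN3), a titin-bound protease, stood at only 31.1 CPM (7.42 to 56.3).

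At the Z-disc, 4 genes lay within the first 52 ranks. These were the actin-binding XIRP2 at 2700 CPM, the calcineurin-binding MYOZ1 at 2541 CPM, the intermediate filament protein desmin (DES) at 2382 CPM and titin-cap (TCAP) at 1602 CPM. TCAP was the most variable of these, from 705 CPM in muscle xylose 5 to 7922 CPM in muscle xylose 7, an 11.2-fold span. The 2 actin crosslinkers of the Z-disc differed in level, with ACTN2 at 389 CPM (241 to 684) and the fast-fibre form ACTN3 at 49.8 CPM (16.8 to 229). Of the other Z-disc genes, MYOZ3 stood at 1049 CPM, the actin crosslinker FLNC at 475 CPM and myotilin (MYOT) at 279 CPM. The lowest Z-disc gene was XIRP1 at 0.846 CPM, an actin-binding relative of XIRP2 that was at 0 in 4 libraries and reached 18.9 CPM in muscle xylose 7.

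Of the stretch-responsive genes 1 was abundant. SMPX, a small muscle protein, had a median of 940 CPM (268 to 1207). The ankyrin repeat genes that shuttle between sarcomere and nucleus were lower, ANKRD1 at 347 CPM (104 to 1068) and ANKRD2 at 18.8 CPM (5.01 to 87.5). ANKRD1 and ANKRD2 spread 10.3-fold and 17.5-fold over the libraries.

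The triad genes were led by triadin (TRDN), which anchors calsequestrin to the release channel, at 1320 CPM (671 to 1669). The triad membrane protein SYPL2 (mitsugumin 29) followed at 524 CPM and the junction-forming JPH1 at 310 CPM. SYPL2 was between 353 and 1034 CPM in all libraries but muscle xylose 7, where it reached 4039 CPM. The γ subunit of the voltage sensor (CACNG1) was at 196 CPM (32.5 to 287), the calcium store protein calsequestrin 1 (CASQ1) at 67.5 CPM (48.8 to 174) and the voltage sensor itself (CACNA1S) at 32.3 CPM (8.10 to 76.4).

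Of the calcium handling genes, sarcolipin (SLN) was the highest at 2059 CPM (1293 to 4119), ahead of parvalbumin (PVALB) at 292 CPM (94.7 to 719). The calcium pump that SLN inhibits, SERCA1 (ATP2A1), was listed at a median of 86.4 CPM (37.4 to 332), with no library reaching the lowest SLN value. ATP2A1, CASQ1 and ACTN3 encode abundant proteins of fast fibres, yet they ranked between 957 and 1568 here. The voltage sensor CACNA1S was at rank 2245. A 3′ method misses reads where the annotated end of a gene is short, and whether that applies to these 4 was not tested.

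**Figure D1:**
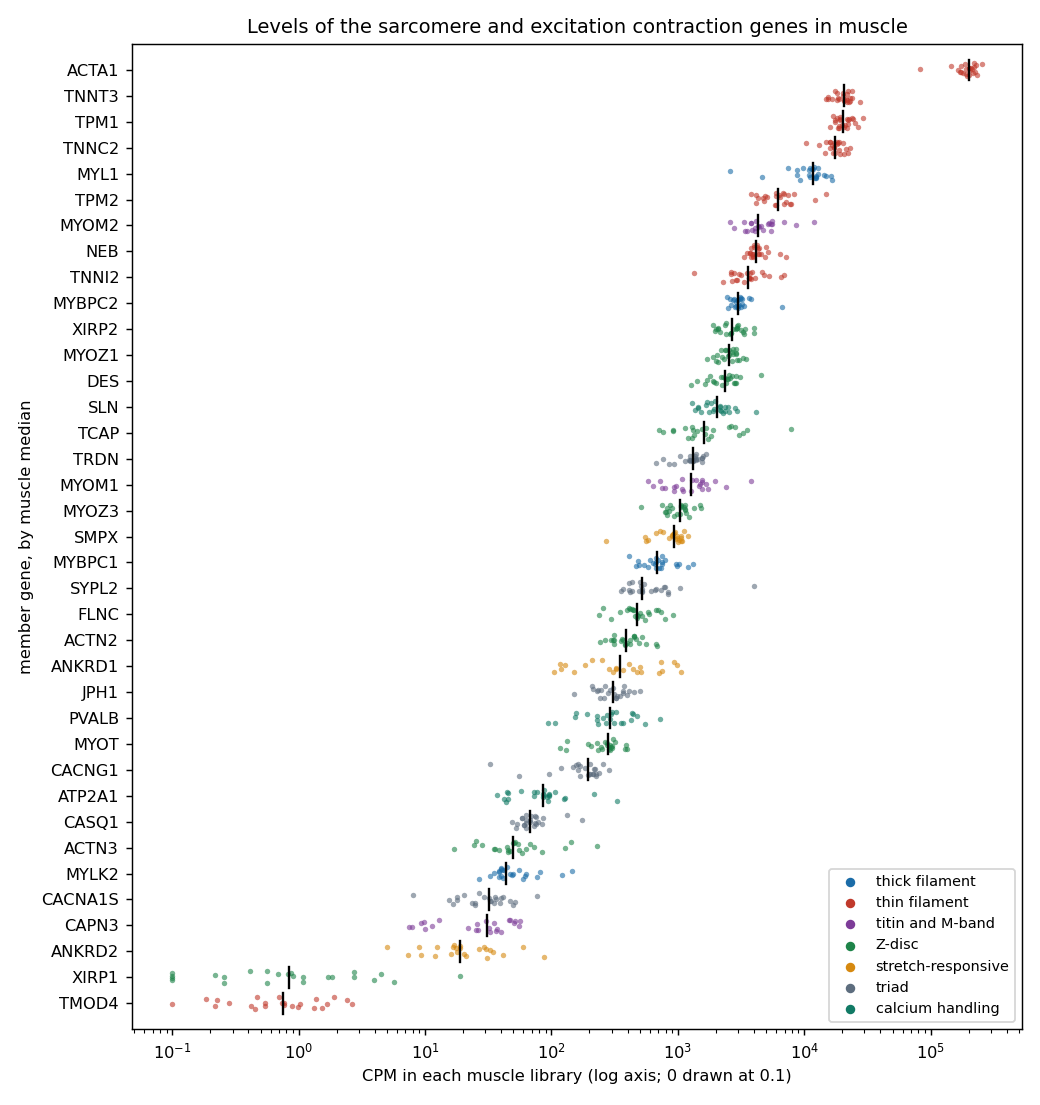
Levels of the 37 genes in the 24 muscle libraries. Each point is the CPM of 1 library on a log axis, the black mark is the median, colours give the role, and values of 0 are drawn at 0.1. ACTA1 sits alone near 201874 CPM, while XIRP1 and TMOD4 lie below 1 CPM.

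Among the 28 genes with a muscle median of 100 CPM or more, the coefficient of variation over libraries had a median of 28.2%, from 15.5% for TNNT3 to 100.0% for SYPL2. Over all 838 genes at that level the median was 26.7%. The 28 genes as a whole therefore varied about as much as other abundant genes, with a range set by a few.

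Outside muscle the 37 genes took a median of 0.344% of counts in jejunum (0.210% to 1.11%), 0.269% in kidney (0.176% to 0.773%) and 0.191% in liver (0.149% to 0.444%). In bulk tissue, fewer cells of a type and less RNA per cell cannot be told apart. Against jejunum 35 of 36 tested genes were higher in muscle and TMOD4 was lower, where 38.4% of all 11511 tested genes were higher in muscle. Against kidney 35 of 36 were higher, where 33.5% of all genes were, and against liver 35 of 36, where 37.4% were. The median log2 difference of the tested genes was 7.40 against jejunum, 8.20 against kidney and 7.92 against liver, while that of all genes was -0.11, -0.13 and -0.03. Of 52 other contractile and triad genes, 47 were tested, and 47, 47 and 45 of them were higher in muscle.

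The low levels outside muscle kept the proportions of muscle. For the 28 genes at 100 CPM or more, the median level elsewhere was 1.17% of the muscle median in jejunum, 0.742% in kidney and 0.586% in liver. ACTA1 itself stood at 2304 CPM in jejunum, 1551 CPM in kidney and 1256 CPM in liver, which was 1.14%, 0.768% and 0.622% of its muscle level. Across these 28 genes, the correlation of log levels between a single library and the muscle medians ran from 0.965 to 0.991 in jejunum, 0.861 to 0.975 in kidney and 0.961 to 0.991 in liver. These are correlations over genes, which are not independent, and each library gave at least 3942 counts in the listed genes.

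A similar fraction was seen for the sum of muscle genes that are not on the list. Of 18 muscle markers, 15 were matched, and their summed share of counts was 1.02% of that in muscle for jejunum, 0.73% for kidney and 0.541% for liver. Of these markers, 9 were at 100 CPM or more in muscle. Single ones among the 9 stood at 0.862% to 5.52% of muscle in jejunum, 0.423% to 5.08% in kidney and 0.476% to 2.59% in liver. At the median, 2 of the 15 were at 0 in jejunum, 1 in kidney and 2 in liver. Over the libraries of a tissue their share moved with that of the listed genes at r = 0.978 in jejunum (n = 19), 0.968 in kidney (n = 24) and 0.970 in liver (n = 23), as a description of values that share a library total. The listed genes themselves moved with ACTA1 across libraries, with a median r over the other 27 genes of 0.81 in jejunum, 0.81 in kidney and 0.75 in liver. The source of these counts was not tested.

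The share of counts in the listed genes was also larger in shallower libraries. Log share against log library total gave r = -0.74 in jejunum (rho = -0.47), -0.37 in kidney (rho = -0.40) and -0.65 in liver (rho = -0.62). With permutation tests adjusted over these 3 relations, p was 0.00181 for r and 0.0546 for rho in jejunum, 0.0773 and 0.0546 in kidney, and 0.00181 and 0.00603 in liver. Without the 2 libraries farthest from the median total, r was -0.57, -0.29 and -0.34, so the relation in liver rested largely on those libraries. Within lanes 7 and 8, r was -0.84 and -0.65 in jejunum, -0.47 and -0.19 in kidney, and -0.93 and -0.59 in liver.

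A few genes departed from the common fraction, most of them in kidney. Parvalbumin (PVALB) had a median of 19.6 CPM in kidney (4.58 to 52.0), which was 6.71% of its muscle level, against 3.91 CPM in jejunum and 1.74 CPM in liver. On the log2 scale kidney minus liver was 2.59 ± 0.24 (SE) and jejunum minus kidney -1.96 ± 0.25, with adjusted p of 3.4e-17 and 4.25e-11. In rodent and human kidney, PVALB is also made by cells of the distal convoluted tubule. Across the 24 kidney libraries PVALB did not follow ACTA1 (r = -0.07), nor did it follow the sodium chloride cotransporter of that tubule, SLC12A3 (r = -0.0028, permutation p = 0.99; rho = 0.15, p = 0.495). That second pair was chosen after the values were seen, r was -0.09 without the 2 libraries farthest in SLC12A3, and within lanes 7 and 8 it was 0.09 and -0.22.

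Among the 28 genes at 100 CPM or more in muscle, myomesin 2 (MYOM2) was the next largest departure, at 118 CPM in kidney or 2.71% of its muscle level, against 1.27% in jejunum and 0.661% in liver. Jejunum minus kidney was -1.07 ± 0.19 and kidney minus liver 1.37 ± 0.18 (log2, SE). Its relative MYOM1 behaved otherwise and stood highest in liver at 22.2 CPM, 1.73% of muscle, with kidney minus liver at -1.11 ± 0.17 and jejunum minus liver at -1.04 ± 0.19 on the log2 scale. TPM1, of which many cell types make forms, reached 2.04% of its muscle level in kidney, FLNC 1.83% and DES 1.66%.

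Comparisons between the 3 other tissues followed from these levels. Jejunum was above kidney for 24 of 36 genes (37.6% of all genes were) and below for PVALB and MYOM2, and above liver for 21 of 36 (40.9% of all genes) and below for MYOM1. Liver was above kidney for 14 of 36 (29.4% of all genes) and kidney above liver for 7 (37.3% of all genes). In jejunum, the genes at 1% or more of their muscle level numbered 25 of 37, in kidney 13 and in liver 3.

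Among the low-level genes, CASQ1 stood at 1.91 CPM in jejunum, 2.83% of muscle, and ANKRD2 at 0.652 CPM in jejunum and 1.002 CPM in kidney, or 3.47% and 5.33% of muscle. These are levels of a few reads per library, and ANKRD2 had no read in 4 jejunum libraries and 1 kidney library. TMOD4 was the exception in direction, with 6.95 CPM in jejunum (1.42 to 18.9) against 0.753 CPM in muscle, a log2 difference of -2.09 ± 0.35 for muscle minus jejunum with an adjusted p of 5.94e-08. Its difference from kidney (2.02 CPM) and liver (0.608 CPM) did not pass, with adjusted p of 0.595 and 0.0717.

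**Figure D2:**
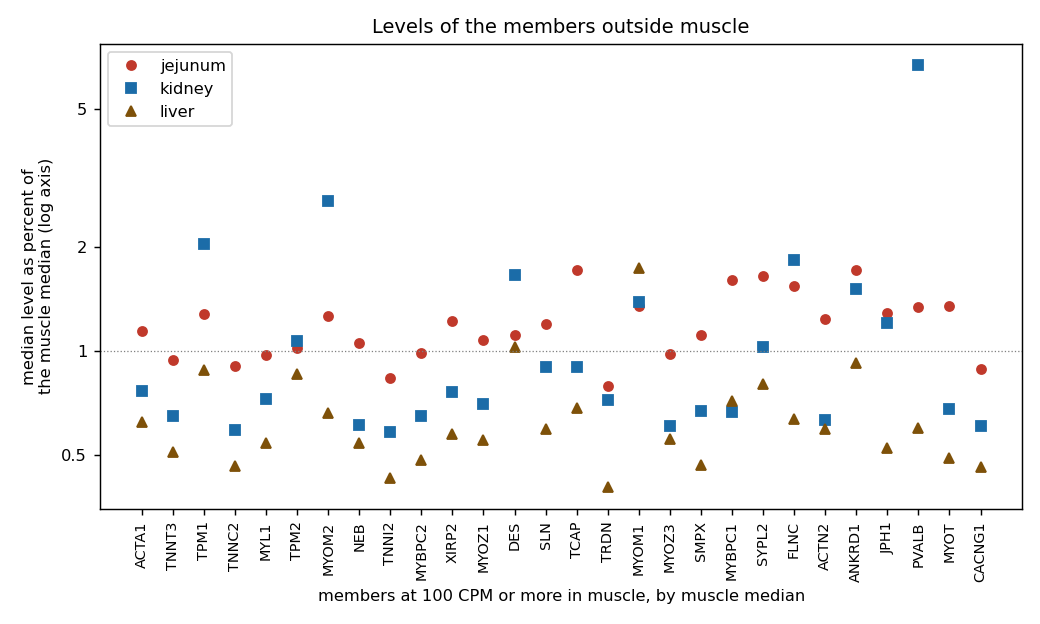
Median level of each of the 28 genes at 100 CPM or more in muscle, in jejunum (circles, 19 libraries), kidney (squares, 24) and liver (triangles, 23), as percent of its muscle median on a log axis. Most points lie close to 1.17%, 0.742% and 0.586%, and PVALB in kidney stands apart at 6.71%.

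Across the 24 muscle libraries the listed genes did not rise and fall as 1 block. For the 35 genes seen in every muscle library, the 595 pairwise correlations of log2(CPM + 1) had a median r of 0.04 (quartiles -0.24 and 0.29), with 82 pairs above 0.5 and 63 below -0.5. The median r over all pairs of 9414 genes was 0.09. This comparison depended on scaling. With TMM, a normalisation by a trimmed mean of gene ratios, the median r was 0.12 for the listed genes and 0.00012 for all pairs. On the CPM scale, 24.4% of pairs of listed genes lay beyond 0.5 in either direction, against 15.2% of all pairs. Without muscle xylose 7 and muscle xylose 12 these shares were 13.4% and 9.69%. The 9414 genes were not matched to the listed ones for level. A muscle median of 100 CPM or more was reached by 28 listed genes and by 838 of all genes.

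Among the pairs beyond 0.5, a pair of opposed sets could be read. The first held MYL1, CACNG1, MYOT, TNNI2, JPH1, TRDN, ACTA1 and SMPX, and the second MYOM2, TCAP, TPM2, MYOM1, CASQ1, SYPL2, ATP2A1, ACTN3 and MYBPC2. These sets were read from the correlations over all 24 libraries and carry no test. Other pairs beyond 0.5 lay outside them, such as MYLK2 with NEB (r = 0.75) and FLNC with XIRP2 (0.64). The place of ACTA1 was not stable. Its highest r was with MYOM2 of the second set without muscle xylose 7 and 12 (0.42) and within lane 7 (0.72). Summed shares of some marker lists moved with them, some rising with the first set and others with the second. Since the sets were picked as opposed in these same values, a split of signs was partly built in. Fibroblast markers (8 of 8 matched, none at a median of 0, 0.187% to 0.887% of muscle counts) had r between 0.27 and 0.60 with genes of the first set and between -0.56 and -0.28 with those of the second. Without muscle xylose 7 and 12 these ranges were -0.17 to 0.39 and -0.31 to 0.12. Adipocyte markers (8 of 8 matched, 2 at a median of 0, 0.0133% to 0.0468% of counts) had r from -0.02 to 0.54 with the first set and -0.50 to -0.13 with the second, and endothelial markers (6 of 8 matched, none at 0, 0.0067% to 0.0179%) from 0.0068 to 0.55 and -0.53 to 0.02. Blood and immune markers (7 of 8 matched, 2 at 0, 0.00737% to 0.0307%) had r from 0.15 to 0.50 and from -0.61 to -0.12. Without muscle xylose 7 and 12, r with the first set was -0.31 to 0.59 for adipocyte and -0.48 to 0.59 for endothelial markers. For blood and immune markers it was -0.32 to 0.38. With the second set the ranges were, in the same order, -0.66 to -0.0046, -0.68 to 0.26 and -0.54 to 0.12. Smooth muscle, slow fibre, liver, jejunum and kidney lists went the other way. With the first and second set, r was -0.37 to 0.0039 and -0.06 to 0.57 for smooth muscle. It was -0.51 to 0.04 and 0.13 to 0.50 for slow fibres, and -0.81 to 0.05 and 0.30 to 0.58 for liver. For jejunum it was -0.73 to -0.12 and 0.34 to 0.58, and for kidney -0.43 to 0.14 and -0.03 to 0.29. Without muscle xylose 7 and 12 each of these ranges held both signs. The remaining lists were less clear. Satellite cell and regeneration markers had r from -0.27 to 0.24 with the first set and -0.28 to 0.34 with the second. Other contractile and triad genes had -0.48 to 0.26 and -0.06 to 0.31, and muscle markers outside the list -0.16 to 0.28 and -0.31 to -0.06. The ranges of these lists, too, all held both signs without muscle xylose 7 and 12. These are descriptions over libraries, and the part of other cell types in the sets was not tested. The tightest positive pair was the light chain MYL1 with the voltage sensor subunit CACNG1, at r = 0.87 over all 24 libraries, 0.76 without the pair of libraries that stood apart, and 0.61 and 0.86 within lanes 7 and 8. The tightest negative pair was MYL1 with the M-band gene MYOM2, at r = -0.89, or -0.77 without those libraries and -0.68 and -0.95 within the lanes.

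In single libraries, MYL1 and MYOM2 lay at opposite ends. MYL1 was lowest in muscle xylose 12 at 2598 CPM and next in muscle xylose 7 at 4673 CPM, followed by muscle control 9 at 7427 CPM. MYOM2 was highest in the same 3 libraries in the same order, at 11858, 8553 and 6862 CPM. Some negative pairs rested mainly on muscle xylose 7 and 12: CASQ1 with MYL1 went from r = -0.77 to -0.09 without them, and ACTA1 with SYPL2 from -0.72 to 0.08. Others changed less, such as ACTN3 with TRDN, at r = -0.84 with and -0.68 without them. NEB with TRDN went from -0.77 to -0.69, and TNNI2 with MYOM1 from -0.78 to -0.65. Among positive pairs, TCAP with DES, both of the Z-disc, was at r = 0.73 with and 0.79 without these libraries.

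Against all other listed genes, the highest median r belonged to ACTN2 at 0.22, ATP2A1 at 0.17 and MYBPC1 at 0.16. The lowest belonged to the troponin C gene TNNC2 at -0.15, triadin (TRDN) at -0.12 and ACTA1 at -0.12. ACTA1 takes a large share of each library, and a rise in it lowers the CPM of all other genes. With CPM taken over the counts of genes outside the list, the pattern was similar, with 75 pairs above 0.5 and 60 below -0.5. Scaling by TMM instead gave 110 and 35.

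Of 20 pairs set by role, 10 had both genes counted. They were tested by permutation with adjustment over the 10, and 3 passed. The store protein CASQ1 and the pump ATP2A1 had r = 0.74 (adjusted p = 0.0016; rho = 0.63, adjusted p = 0.0067). The α-actinins ACTN2 and ACTN3 had r = 0.61 (adjusted p = 0.00603; rho = 0.46, adjusted p = 0.065). The ankyrin repeat genes ANKRD1 and ANKRD2 had r = 0.60 (adjusted p = 0.00603; rho = 0.68, adjusted p = 0.0034).

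Of these 3 pairs, only ANKRD1 with ANKRD2 still passed without muscle xylose 7 and 12. Its r was 0.83 and 0.54 within lanes 7 and 8 (adjusted p = 0.0112 and 0.239, permutation tests over 12 libraries), 0.48 without the 2 libraries farthest in ANKRD1, and 0.60 (adjusted p = 0.014) without muscle xylose 7 and 12. CASQ1 with ATP2A1 had r = 0.09 within lane 7 and 0.86 within lane 8, and 0.44 (adjusted p = 0.097) without the pair of libraries. ACTN2 with ACTN3 was at 0.59 and 0.64 within the lanes but at 0.35 (adjusted p = 0.185) without that pair. For CASQ1 with ATP2A1 the relation was thus seen mainly in lane 8, the lane of muscle xylose 7 and 12, whereas ACTN2 with ACTN3 had a similar r in lane 7, which holds neither, without passing there (adjusted p = 0.143, permutation test).

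The other pairs did not pass. TNNT3 with TNNC2 had r = 0.45 and ANKRD1 with XIRP1 r = 0.43, both with an adjusted p of 0.0701. Without muscle xylose 7 and 12, ANKRD1 with XIRP1 was at r = 0.56 (adjusted p = 0.0226). ATP2A1 with its inhibitor SLN had r = -0.36 (adjusted p = 0.149), which became -0.59 (adjusted p = 0.014) without muscle xylose 7 and 12. TPM1 with TPM2 (r = 0.22), TNNI2 with TNNC2 (-0.19), MYBPC1 with MYBPC2 (-0.15) and MYOZ1 with MYOZ3 (0.03) had adjusted p of 0.431, 0.448, 0.538 and 0.895. For these 7 pairs r was between -0.59 and 0.32 without the 2 libraries farthest in the first gene, and between -0.44 and 0.57 within the lanes. With TMM-scaled CPM, TPM1 with TPM2 and TNNT3 with TNNC2 passed, each at r = 0.60 (adjusted p = 0.0043, permutation test). The rest of the 7 did not pass there. With CPM over genes outside the list, TPM1 with TPM2 did not pass (r = 0.15, adjusted p = 0.685).

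**Figure D3:**
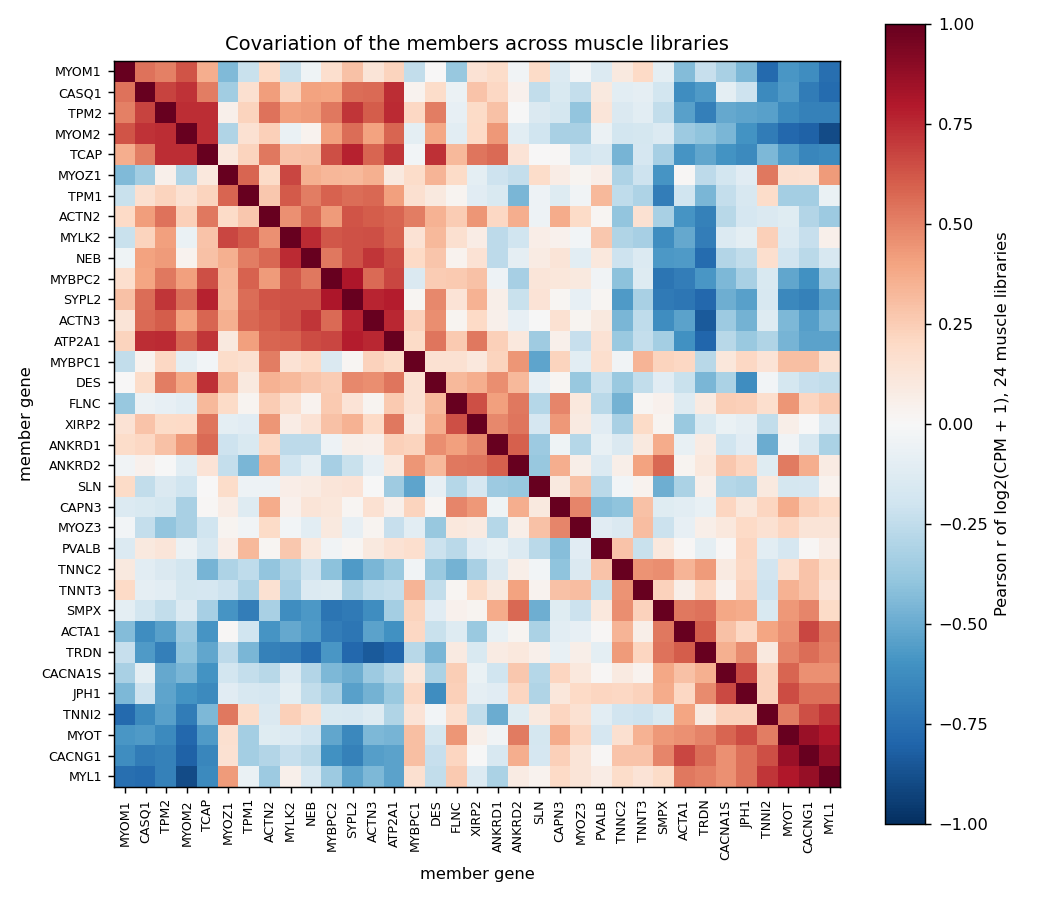
Pearson r between each pair of the 35 genes seen in all 24 muscle libraries, from log2(CPM + 1), with genes ordered by similarity. Red blocks at upper left and lower right are the opposed sets, the deepest blue being MYL1 with MYOM2 at -0.89.

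Sequencing lane separated some of these genes in muscle. With diet as a term in an edgeR quasi-likelihood fit, 4 of 35 tested genes differed between lane 8 and lane 7, all higher in lane 8, where 2.57% of all 8436 genes differed. TCAP had a median of 1296 CPM in lane 7 (705 to 1893) and 2589 CPM in lane 8 (1211 to 7922), a log2 difference of 1.34 ± 0.27 (adjusted p = 0.0161). MYOM2 went from 3813 CPM (2598 to 4554) to 5489 CPM (3872 to 11858), with a difference of 0.85 ± 0.20 (adjusted p = 0.0277). The 12 libraries of a lane overlapped those of the other in both genes.

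ANKRD1 was at 277 CPM (104 to 501) in lane 7 and 615 CPM (118 to 1068) in lane 8, a difference of 1.28 ± 0.32 (adjusted p = 0.0328), and DES at 1920 and 2529 CPM, a difference of 0.55 ± 0.15 (adjusted p = 0.0443). Without muscle xylose 12 only TCAP and MYOM2 passed, with adjusted p of 0.024 and 0.0489, and ANKRD1 was at 0.0667 and DES at 0.0776. Without muscle xylose 7, DES missed the threshold (adjusted p = 0.0516) and SMPX passed it (0.42 ± 0.11, adjusted p = 0.0359). Within the control libraries alone or the xylose libraries alone, none of the 4 passed in edgeR, with the smallest adjusted p at 0.286 and 0.0814. Of 47 other contractile and triad genes tested, the Z-disc and tendon junction gene NRAP passed (1.07 ± 0.20, adjusted p = 0.00864), chosen for its p. Lanes also held different leading letters in the sample titles and may have held different animals, which cannot be told apart.

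Lane was also compared at the trace levels of the other tissues, where liver shared the sign of the muscle difference most often. These traces kept the proportions of muscle, and whether their lane differences are independent of those in muscle was not tested. In liver 1 of 9194 genes passed by lane, 0.0109%, and that gene was TCAP, at 6.47 CPM (4.18 to 18.5) in lane 7 and 18.6 CPM (9.92 to 28.2) in lane 8, a log2 difference of 1.28 ± 0.22 (adjusted p = 0.0404). TCAP differed by 0.67 ± 0.28 in jejunum and 1.07 ± 0.28 in kidney without passing, where 0 of 25 tested genes passed in each and 9.74% and 0.0197% of all genes did. At an unadjusted p under 0.05 there were 3 in jejunum and 1 in kidney, against 2538 of all 9049 and 1105 of all 10128 genes. Over the listed genes tested, lane differences in muscle and in the other tissue had r = 0.91 in jejunum (24 genes), 0.76 in kidney (25) and 0.91 in liver (23), given as a description over genes. The sign was the same for 13 of the 24 in jejunum, 17 of the 25 in kidney and 21 of the 23 in liver. MYOM2, for one, was at -0.21 ± 0.26 in kidney and DES at 0.03 ± 0.23.

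**Figure D4:**
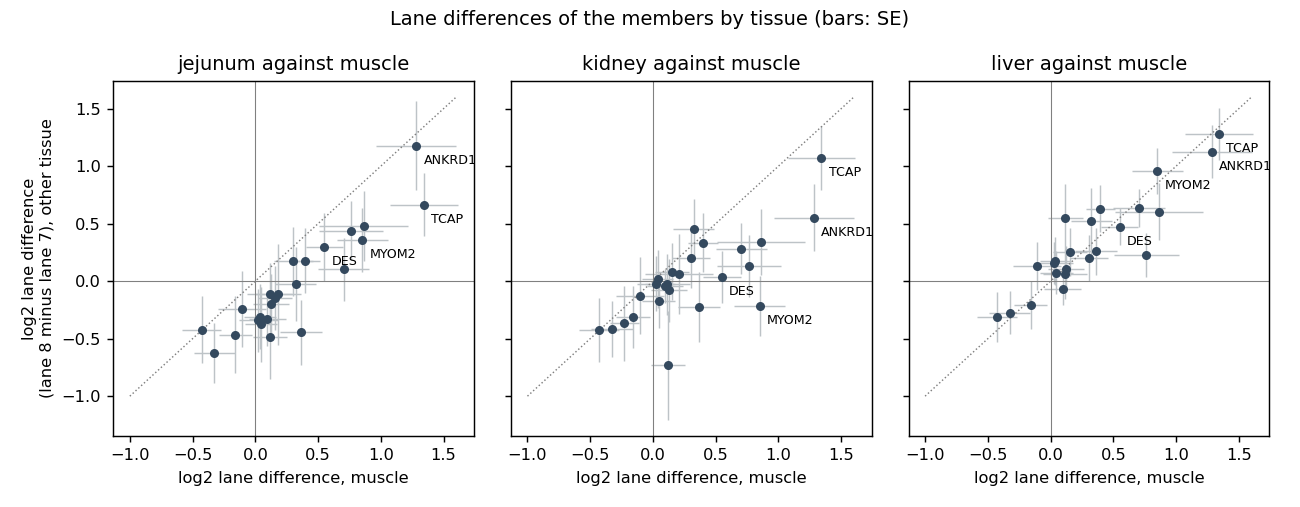
Log2 difference between lane 8 and lane 7 of each listed gene in jejunum, kidney and liver (vertical axes) against that in muscle (horizontal axes), with standard errors as bars and equality dotted. TCAP and ANKRD1 lie at upper right in every panel, and in liver most points follow the dotted line.

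Xylose was compared with control within each tissue, with lane as a term, to ask whether the diet altered these genes. In muscle no listed gene passed in edgeR, 0 of 35 tested, as did 0% of all 8436 genes. At an unadjusted p under 0.05 there were 3 listed genes, against 620 of all 8436. DESeq2 called 0 listed genes and 2 of all genes. The log2 fold changes had a median of -0.03 and ran from -0.42 to 0.26, against a median of 0.03 over all genes, and 13 were positive, where 55.4% of all genes were. For 34 of the 35 the 95% interval lay within a 2-fold change in either direction, the exception being ANKRD2. Without muscle xylose 7 and 12, 28 of the 35 were negative with a median of -0.18. Of all 8623 genes tested there, 4223 were positive, and the median was -0.0067. An unadjusted p under 0.05 was found for 9 of the 35 and for 1517 of all genes. Again 0 passed in edgeR, where 4 of all genes did. The smallest p among them, for which it is named, was that of SYPL2, at -0.59 ± 0.16 (adjusted p = 0.109) without these libraries and 0.09 ± 0.35 (adjusted p = 0.977) with them.

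The lower values under xylose with the smallest p were those of TNNI2, CACNG1 and DES. TNNI2 had a median of 3714 CPM in controls (2623 to 6923) and 3050 CPM under xylose (1347 to 4845), a log2 fold change of -0.41 ± 0.16 (p = 0.0163, adjusted p = 0.614). CACNG1 was at 206 CPM (94.9 to 287) and 165 CPM (32.5 to 226), a fold change of -0.42 ± 0.19 on the log2 scale (adjusted p = 0.617). DES was at 2529 CPM (1703 to 4593) and 2114 CPM (1263 to 3125), with -0.33 ± 0.15 (adjusted p = 0.618). In all 3 the groups overlapped and none passed.

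MYOZ1 (-0.22 ± 0.13) and MYL1 (-0.28 ± 0.17) followed, with adjusted p of 0.742 and 0.756. On the other side JPH1, at 278 CPM (152 to 376) and 338 CPM (210 to 504), had 0.24 ± 0.12 (adjusted p = 0.685). CASQ1 (0.26 ± 0.18), MYOM1 (0.22 ± 0.26), TPM2 (0.16 ± 0.20) and MYBPC2 (0.09 ± 0.15) had adjusted p between 0.794 and 0.924. Without muscle xylose 7 and 12 the values of CASQ1, MYOM1, TPM2 and MYBPC2 were -0.026, -0.070, -0.095 and -0.069, so their sign rested on those libraries. By role, the log2 medians were -0.09 for the thick filament, -0.06 for the thin filament, -0.17 for the Z-disc with 8 of 9 tested genes negative, 0.09 for titin and the M-band, 0.08 for stretch-responsive genes, 0.03 for the triad and 0.04 for calcium handling. Of 47 other contractile and triad genes tested, 0 passed, 3 had an unadjusted p under 0.05 and 27 were positive, with LMOD2 (0.54 ± 0.22), PDE4DIP (0.28 ± 0.14), SRL (-0.28 ± 0.12) and TNNT1 (-0.48 ± 0.21) having the smallest p in each direction.

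**Figure D5:**
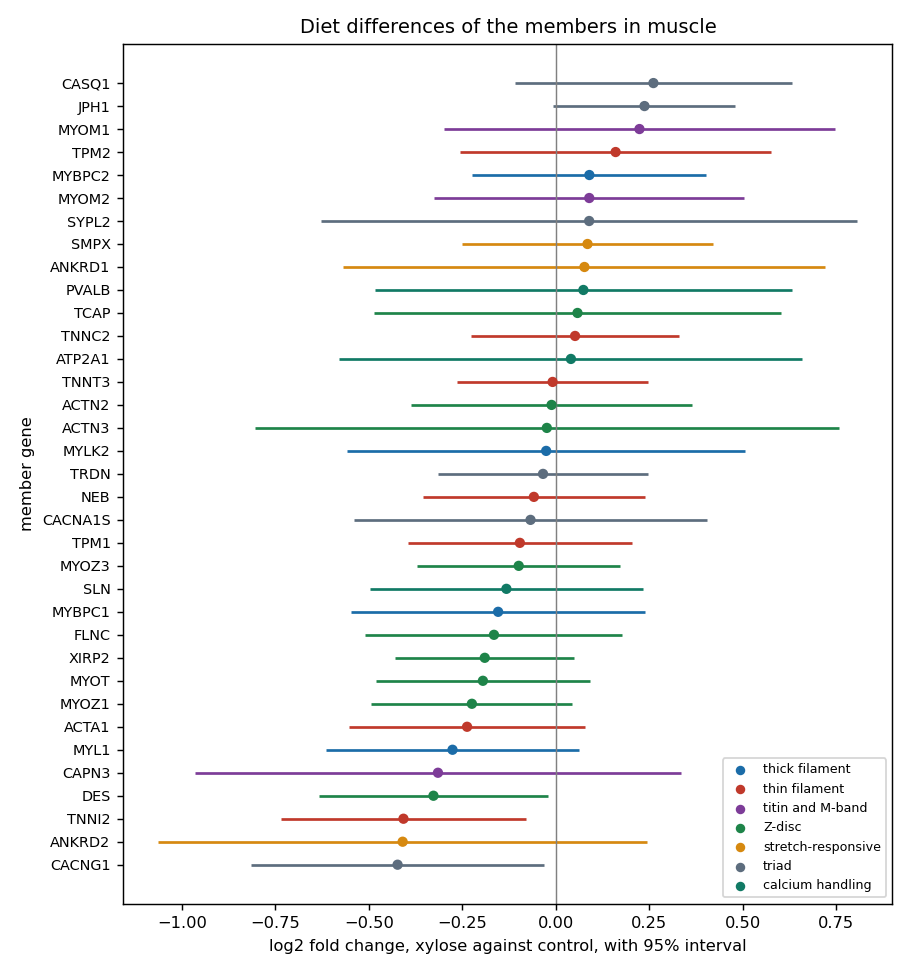
Log2 fold change of xylose against control in muscle for the 35 tested genes, with 95% intervals, coloured by role. CACNG1 is lowest at -0.42 and CASQ1 highest at 0.26, and no gene passed the adjusted threshold.

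Diet was also compared at the trace levels elsewhere, where fold changes concern the traces. In kidney 0 of 25 tested genes passed in edgeR or DESeq2, as did 0% of all 10128, yet 24 of 25 fold changes were positive with a median of 0.42 on the log2 scale, where 54.5% of all genes were positive. At an unadjusted p under 0.05 there were 3, against 720 of all 10128 genes. The values of smallest p were those of ANKRD1, at 4.41 CPM (1.15 to 7.91) in controls and 6.59 CPM (2.67 to 17.1) under xylose (0.86 ± 0.29, adjusted p = 0.653), and MYOZ3 (0.65 ± 0.27, adjusted p = 0.683), while PVALB was negative (-0.37 ± 0.35, adjusted p = 0.851). The 2 kidney libraries with the largest share of the listed genes, 0.773% in kidney xylose 5 and 0.695% in kidney xylose 12, are both of the xylose diet, and 18.9% and 12.0% of their counts were mitochondrial against a kidney median of 8.66%. Without them 15 of 25 were positive and the median was 0.054, where 5205 of all 10322 genes were positive.

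In jejunum 0 of 24 tested genes passed in edgeR or DESeq2, as did 0% of all 8867. None had an unadjusted p under 0.05, where 404 of all genes did. Of the 24, 22 were positive with a median of 0.20, where 50.0% of all genes were positive. Without jejunum xylose 3, whose share of the listed genes was 1.11%, 7 were positive with a median of -0.078. Of all 8777 genes tested there, 4480 were positive. SLN (0.51 ± 0.26) and MYOZ3 (0.48 ± 0.33) had the smallest p among positive values and FLNC (-0.22 ± 0.28) and TMOD4 (-0.22 ± 0.38) among negative ones, with adjusted p from 0.954 to 0.972. In liver 0 of 23 passed in edgeR or DESeq2, as did 0% of all 9194. None had an unadjusted p under 0.05, where 618 of all genes did. Of the 23, 6 were positive, where 52.0% of all genes were. There, DES (-0.25 ± 0.16), FLNC (-0.30 ± 0.20), MYOZ3 (0.19 ± 0.21) and SLN (0.13 ± 0.21) had adjusted p from 0.723 to 0.893.

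A difference of the diet effect between tissues, tested as an interaction, was called for 0 of 36 listed genes in edgeR, and for 0% of all 12266 genes. Of the listed genes, 1, CACNG1, had an unadjusted p under 0.05 (p = 0.0046, adjusted p = 0.769), where 643 of all genes did.

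When each file was instead given to the sample under which it was recorded, every control library of muscle lay in lane 7 and every xylose library in lane 8. Diet and lane cannot be told apart there. In that comparison 4 of 35 listed genes passed, TCAP (1.35 ± 0.26), MYOM2 (0.86 ± 0.20), ANKRD1 (1.29 ± 0.31) and TPM2 (0.73 ± 0.20), where 3.33% of all genes did. The first 3 are genes that differed by lane above.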

How the data were processed

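Per the labels, RNA was made into 3′ QuantSeq libraries. The deposited files hold raw gene counts, 1 file per library. The submitters' processing notes name STAR and featureCounts, without versions, and the file names name HTSeq. The sources used here do not give the build, annotation release, strand or multi-mapping settings, so counts of paralogous, overlapping or antisense genes (such as ACTN2 and ACTN3, MYOM1 and MYOM2, or SYPL2, PVALB and TMOD4 beside their neighbours) are uncertain. Symbols were paired with 14857 of 25880 identifiers.

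The listed genes, role lists and marker lists were chosen with earlier results of these data known. Files were assigned by the title in their name, and libraries under 1000000 counts were left out. Levels are CPM over all gene counts. Tests used edgeR 4.0.16 in R 4.3.3 (TMM, filterByExpr, quasi-likelihood F test) over all genes, with Benjamini-Hochberg adjustment at 0.05, lane as a covariate for diet, and diet and lane for tissue. Errors of fold changes are SE, and intervals cover counting and library spread together. Correlations used log2(CPM + 1) and two-sided permutation tests with 100000 resamples (NumPy 2.4.6, SciPy 1.17.1). The adjustment for the pairs set by role was made over the 10 of 20 with both genes counted. The edgeR and permutation steps were tested on simulated data.

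Genes named for levels were the 3 highest and 2 lowest of each role by muscle median and those among the first 10 genes. For tissues they were those at 1% or more of muscle, of which the extreme ones are given. For diet they were the 5 (elsewhere 2) of smallest p per direction, and for covariation the pairs set by role and the 3 highest and lowest by median r. Other correlated pairs, and the lane comparison, were chosen after values were seen. Alternatives were RLE scaling, no low-count filter, DESeq2 1.42.0, no lane term, each lane, all libraries, the recorded assignment, the plate column inferred from titles as a block, other CPM totals, a pseudocount of 0.1 and fits without libraries that stood apart. Shares of marker lists leave out the listed genes.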

Additional observations from a re-analysis of the deposited data

Results flagged for a closer look

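Jejunum xylose 3 lay far from the other 9 jejunum libraries of its diet in the share of counts held by the listed genes, at 1.11% against 0.59% in the next library, and in the level of sarcolipin (SLN), at 77.5 CPM against 47.8 CPM in the next. It was also the jejunum library with the fewest counts kept, 1044588, and with the largest mitochondrial share, 28.2%. Gaps of this kind were looked for in 10 groups of jejunum values, and chance flags about 1 in 20 such groups. The part of depth or of mitochondrial content in these values was not tested.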

How the results depend on the processing

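No diet count of listed genes left 0 in any tissue under any scaling, filter, tool or subset tried, except under the recorded assignment, with 4 in muscle, 1 in jejunum (libraries that are liver by title) and 1 in liver (libraries that are jejunum by title). Of all genes, 281 of 8436, 1 of 9194 and 887 of 9049 passed there. Counts higher in muscle than elsewhere stayed within 1 gene of the values given. The lane count in muscle was 9 with DESeq2, 2 without muscle xylose 12 and 0 within either diet alone. Of all genes, 630 of 8436 passed with DESeq2 and 95 of 8537 without muscle xylose 12. The count of passing pairs was 5 with TMM-scaled CPM, with CPM over other genes and without muscle xylose 7, and 1 within either lane. It stayed at 3 without muscle xylose 7 and 12, though only ANKRD1 with ANKRD2 was among both sets of 3.

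No passing value changed sign. Those that did, none passing, were in muscle by diet JPH1 (-0.24), DES (0.52) and MYOZ1 (0.029) under the record, CASQ1 (-0.12), TPM2 (-0.31) and MYBPC2 (-0.19) in lane 7 alone, MYBPC2 without muscle xylose 7 (-0.043), and without muscle xylose 7 and 12 CASQ1 (-0.026), MYOM1 (-0.070), TPM2 (-0.095) and MYBPC2 (-0.069). Elsewhere they were FLNC in jejunum (0.10), MYOZ3 in liver (-0.14) and SLN in liver (-0.19) in lane 7 alone, and MYOZ3 (-0.26) and PVALB (0.066) in kidney under the record. For MYBPC1 with MYBPC2, r became 0.17 with TMM, 0.22 without muscle xylose 7, 0.24 without both libraries and 0.33 in lane 7. For MYOZ1 with MYOZ3, r became -0.039 without muscle xylose 12, -0.052 without both libraries, -0.44 in lane 7 and -0.098 after diet and lane were taken out. The causes were not tested. Sample titles begin with a letter and a number. Grouping them by number, and by letters A to D or E to H, gave 24 groups. These are called plate columns here, though the labels name no plate. Each of the 24 held 1 diet over all 4 tissues, so the diet tests within a tissue could not be paired. Between tissues, deviations of libraries from 1 column had a median r of 0.09 to 0.23 over 8933 genes for the 6 pairs of tissues, against -0.02 to 0.0014 between columns of the same diet and lane, but single columns went down to -0.43, and libraries did not always correlate best with their own column. The labels do not say what a column shares. With the plate column as a replicate block, an alternative chosen after seeing the data, 35, 35 and 36 genes were higher in muscle than in jejunum, kidney and liver, the interaction called 0, and liver was above kidney for 18 genes against 14, while TMOD4 passed as higher in muscle than in liver (adjusted p = 0.0396, edgeR). Trace levels outside muscle rest on 3942 to 21306 counts per library over the listed genes, and single genes such as XIRP1, CACNA1S or ATP2A1 were at 0 in some libraries there. Counting error alone cannot be separated from library spread for them.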
